A study of Mus musculus with 15 samples.

Results

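The 7 macrophage genes of the mouse spleen described here are the scavenger receptor genes Marco, Msr1, Cd163 and Cd36, the lipopolysaccharide co-receptor gene Cd14, Emr1, which is the older name of Adgre1, and the nuclear receptor gene Pparg. They were taken by symbol from the 561 genes of the nCounter Mouse Immunology Panel, and all 7 were present. All 7 also passed the filter on low counts, which 426 of the 547 genes that are not reference genes passed. The panel counts barcoded probe pairs hybridized to each mRNA, without amplification.

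The study asked what whole-body ionizing radiation (WBIR) does to splenic immune genes, what an added burn changes, and whether extracellular vesicles of mesenchymal stem cells (MSC-EVs) alter either response. Female C57BL/6J mice of 6 to 8 weeks of age were used according to the methods. There were 5 groups of 3 samples each: Sham, with neither irradiation nor burn; WBIR, with 9 Gy; WBIR+MSC-EVs; RCI, the radiation combined injury of 9 Gy plus a 20% burn (share of total body surface); and RCI+MSC-EVs. MSC-EVs, from bone marrow cells of the same strain, were given intravenously 72 hours after injury, and spleens were taken 48 hours later. The labels give PBS as the vehicle for RCI, whereas the study's text gives sterile saline for untreated mice of the WBIR, RCI and Sham groups alike. Red blood cells were lysed before RNA isolation in every group. Whether the 3 samples of a group were 3 mice is not stated, so p-values measure the spread between these samples, which may be technical.

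Scavenger receptors let macrophages bind and take up modified lipoproteins, microbes, dying cells and free hemoglobin. Marco and Msr1 encode class A scavenger receptors; Marco is known from marginal zone macrophages of the spleen, which face the incoming blood. Cd163 encodes the receptor for hemoglobin bound to haptoglobin, and Cd36 a class B receptor for oxidized lipoproteins and long-chain fatty acids that platelets and endothelial cells also carry. The Cd14 product hands lipopolysaccharide to the TLR4 receptor complex. Emr1 encodes F4/80, a surface marker of red pulp macrophages. Pparg encodes PPARγ, a lipid-activated transcription factor that pairs with RXR on direct repeats of AGGTCA and has Cd36 among its known targets.

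The promoters of these genes are shown because PPARγ is itself among the 7 genes and Cd36 is a known target of it, so the letters of its binding motif can be read beside the counts below. RefSeq sequences for mouse assembly GRCm38.p6, from 250 bases before to 50 bases after the transcription start, were found for 4 of the 7 genes, Marco, Cd163, Cd36 and Pparg. Capitals mark matches to 1 of 4 motifs searched on both strands: the nuclear receptor site AGGTCA, the full direct repeat of AGGTCA with 1 base between the copies, the PU.1 core GAGGAA and the AP-1 site TGANTCA.
Marco, chr1:120504975-120505274, minus strand: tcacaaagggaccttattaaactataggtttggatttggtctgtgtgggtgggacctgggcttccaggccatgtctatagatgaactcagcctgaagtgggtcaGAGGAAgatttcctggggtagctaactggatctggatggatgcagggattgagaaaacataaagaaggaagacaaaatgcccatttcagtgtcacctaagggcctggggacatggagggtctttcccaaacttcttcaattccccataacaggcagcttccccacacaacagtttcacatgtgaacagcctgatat
Cd163, chr6:124304401-124304700, plus strand: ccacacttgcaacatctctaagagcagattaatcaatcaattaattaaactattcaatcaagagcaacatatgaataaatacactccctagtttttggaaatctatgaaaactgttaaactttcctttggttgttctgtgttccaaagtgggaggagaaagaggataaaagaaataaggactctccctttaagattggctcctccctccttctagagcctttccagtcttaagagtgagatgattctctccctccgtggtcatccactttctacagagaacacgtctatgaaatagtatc
Cd36, chr5:17835847-17836146, minus strand: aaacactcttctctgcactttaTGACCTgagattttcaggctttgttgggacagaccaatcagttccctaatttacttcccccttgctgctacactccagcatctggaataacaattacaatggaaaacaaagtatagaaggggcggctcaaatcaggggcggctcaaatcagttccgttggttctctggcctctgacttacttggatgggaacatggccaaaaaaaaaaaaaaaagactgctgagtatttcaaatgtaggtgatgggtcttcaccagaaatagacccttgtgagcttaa
Pparg, first of 3 listed starts, chr6:115360894-115361193, plus strand: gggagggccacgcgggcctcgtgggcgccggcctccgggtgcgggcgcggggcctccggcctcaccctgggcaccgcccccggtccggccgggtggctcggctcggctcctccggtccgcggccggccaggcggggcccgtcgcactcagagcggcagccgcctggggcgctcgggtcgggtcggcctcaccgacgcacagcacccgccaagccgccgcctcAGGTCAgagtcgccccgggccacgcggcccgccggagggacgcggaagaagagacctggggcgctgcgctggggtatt

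AGGTCA matched once in the Cd36 window, on the opposite strand 228 bases before the start, and once in the Pparg window shown, 28 bases before the start. It also matched at the second of the 3 Pparg starts, 9 bases before it. Of 32851 promoters of the same length, 16.3% hold this motif, so a match is common. The full direct repeat, held by 0.0396% of promoters, was in none of the windows of these genes. GAGGAA, held by 28.3%, matched in Marco 146 bases before the start and at the second Pparg start 240 bases before it. TGANTCA, held by 7.81%, matched in none. The Cd163 window held no match to any of the 4. GC content was 47.3% for Marco, 38% for Cd163, 43% for Cd36 and 80.3% for the first Pparg window.

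The libraries held between 90127 and 598872 counts, with 179472 to 509621 in the Sham libraries and 90127 in the smallest WBIR+MSC-EVs library. Values below are counts scaled to the geometric mean of the 14 reference genes, called scaled counts, and they compare samples within a gene, not genes with each other. Log2 fold changes (log2FC) are given ± SE, and a gene is called at an edgeR adjusted p under 0.05. The median log2FC of the 426 tested genes lay below 0 in each comparison with Sham, at -0.74 for WBIR, -0.61 for WBIR+MSC-EVs, -0.53 for RCI and -0.45 for RCI+MSC-EVs. TMM scaling shifted these medians by 0.71, 0.56, 0.54 and 0.37.

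The sample labelled RCI replicate 3 stood apart from the other RCI samples. Among the 426 genes, Marco had the seventh largest excess in it over the mean of RCI replicates 1 and 2, at 2.84 on the log2 scale, and Cd163 the fourth largest deficit, at -3.19. The 9 macrophage markers, summed, came to 16531 scaled counts in this sample against 40572 and 41123 in the other RCI samples. Its total of 484525 counts was the highest of the group.

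Expression of the 7 genes was first compared between irradiated and Sham spleens. Marco, Msr1, Emr1 and Pparg were higher in each of the 12 irradiated samples than in any Sham sample. Cd163 and Cd14 were above the highest Sham sample in 11 of 12, and Cd36 in 7 of 12. The share of the 426 tested genes apart over all 12 samples was not counted, so this does not set the 7 genes apart from the panel. edgeR called 5 of the 7 genes higher in WBIR, where 21.6% of the 426 tested genes were called higher. It called 6 in WBIR+MSC-EVs (22.8%) and, with the burn, 5 in RCI (26.5%) and 5 in RCI+MSC-EVs (23.9%). None of the 7 was called lower in these comparisons, whereas 46.9%, 45.1%, 43% and 41.3% of tested genes were. In either direction the called shares of tested genes were 68.5%, 67.8%, 69.5% and 65.3%. The ranges of 6, 5, 5 and 6 of the 7 genes did not overlap with Sham in these comparisons, which was so for 71.1%, 69%, 64.6% and 70.4% of tested genes. The 4 comparisons share the Sham samples. By the methods, Sham mice had the procedure of the burn model, with anesthesia, shaving and morphine, but neither burn nor irradiation. That procedure is not described for mice that were only irradiated. In WBIR and WBIR+MSC-EVs against Sham, the radiation therefore cannot be told apart from the lack of that procedure. In spleen RNA, fewer cells of a type and less RNA per cell cannot be told apart, and the same holds for more of either. Nor can a rise be told apart from a larger share of the RNA where other cells are lost. The 12 T cell and 9 B cell markers tested had median log2FC over Sham of -2.62 and -4.09 in WBIR. In RCI these medians were -2.30 and -4.35. The part of such a loss in the rises of the 7 genes was not tested.

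**Figure D1:**
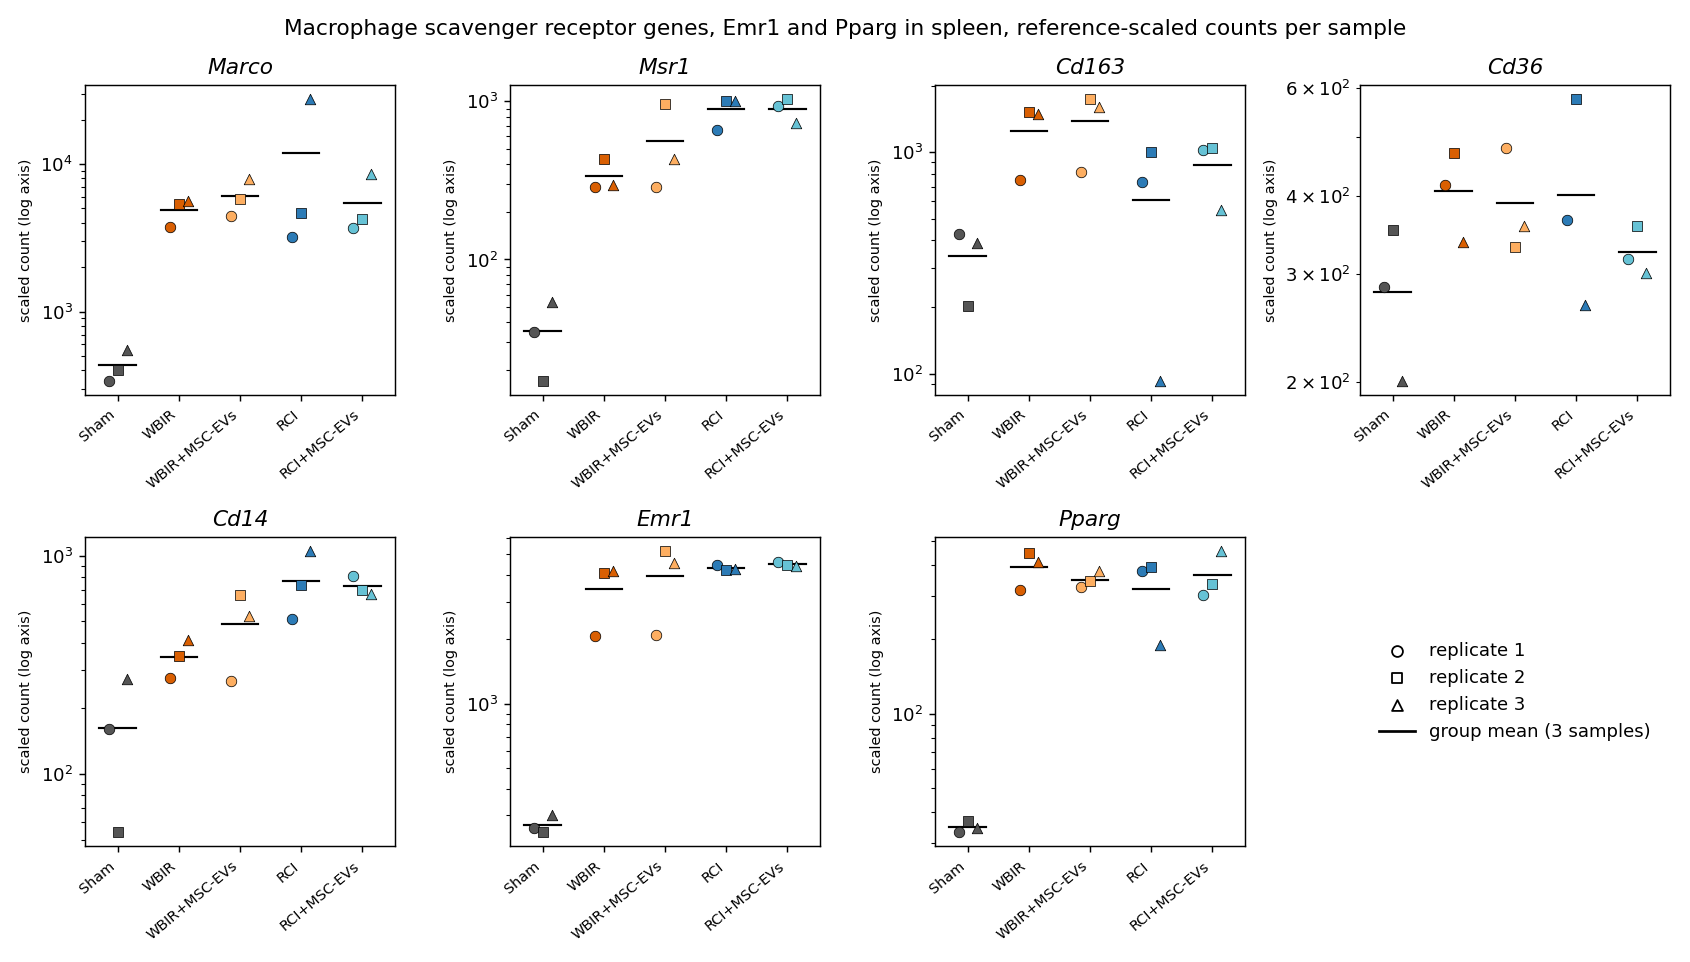
Scaled counts (log axis) of the 7 genes in the 15 samples by group, with a point per sample shaped by replicate number and a line at the mean of 3 samples. Marco, Msr1, Emr1 and Pparg of all 12 irradiated samples lie above the Sham samples, and the share of tested genes so placed was not counted. RCI replicate 3 is the highest sample in Marco (27539) and the lowest in Cd163 (93.2).

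Marco had 341, 404 and 551 scaled counts in the 3 Sham samples. WBIR samples had 3721, 5326 and 5621, WBIR+MSC-EVs samples 4459, 5815 and 7969, RCI samples 3187, 4666 and 27539, and RCI+MSC-EVs samples 3659, 4219 and 8513. All irradiated samples were therefore above Sham, and a single RCI sample exceeded the rest. For Marco, the log2FC over Sham was 3.50 ± 0.70 in WBIR (edgeR adjusted p 0.000513), an 11.3-fold rise with a 95% interval of 4.01 to 31.8. It was 3.81 ± 0.71 in WBIR+MSC-EVs (0.000302) and, with the burn, 4.77 ± 0.74 in RCI (6.6e-05) and 3.66 ± 0.70 in RCI+MSC-EVs (0.000419). Without RCI replicate 3 the value in RCI was 3.18 ± 0.40 (edgeR adjusted p 1.8e-05), so the call held and the fold was smaller. Marco in RCI was not called by an unequal-variance test per gene (4.13, adjusted p over all tested genes 0.0972). In that sample Marco took 47281 of 484525 counts, or 9.76% of the library with an exact 95% binomial interval of 9.675% to 9.842% that covers counting error only. The other irradiated samples gave Marco 0.917% to 2.66% of their counts and the Sham samples 0.0873% to 0.141%. Ordered by mean, the groups ran Sham, WBIR, RCI+MSC-EVs, WBIR+MSC-EVs and RCI, and the ranges of neighbors overlapped except between Sham and WBIR.

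Msr1, the second class A receptor gene, had 34.8, 17.1 and 53.8 scaled counts in Sham, from 42, 7 and 70 raw counts. It had 288, 432 and 296 in WBIR, 285, 957 and 432 in WBIR+MSC-EVs, 656, 1010 and 998 in RCI, and 928, 1033 and 730 in RCI+MSC-EVs. Sham samples were lowest, and the RCI samples all lay above the WBIR samples. Msr1 had a log2FC over Sham of 3.18 ± 0.46 in WBIR (edgeR adjusted p 3.5e-05), 3.91 ± 0.47 in WBIR+MSC-EVs (7.11e-06) and, with the burn, 4.57 ± 0.48 in RCI (2.35e-06) and 4.59 ± 0.48 in RCI+MSC-EVs (2.71e-06). The fold in WBIR was 9.07, with a 95% interval of the log2FC of 2.20 to 4.16. No background was subtracted, so these folds rest on low Sham counts. The means ran Sham, then WBIR and WBIR+MSC-EVs, then RCI and RCI+MSC-EVs in rising order, and beyond Sham the ranges of neighbors overlapped.

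Cd163, the hemoglobin scavenger receptor gene, was called higher in the groups without a burn. Its scaled counts were 427, 203 and 390 in Sham, 748, 1517 and 1494 in WBIR, and 815, 1741 and 1597 in WBIR+MSC-EVs, with no overlap between Sham and either group. RCI samples had 737, 998 and 93.2, and RCI+MSC-EVs samples 1025, 1048 and 549. RCI replicate 3 was thus below every Sham sample while the other RCI samples were above. The log2FC over Sham was 1.87 ± 0.63 in WBIR (edgeR adjusted p 0.0166) and 2.02 ± 0.64 in WBIR+MSC-EVs (0.0115). In RCI it was 0.83 ± 0.62 (0.245) and in RCI+MSC-EVs 1.35 ± 0.62 (0.0681), neither of which passed. With TMM scaling RCI+MSC-EVs passed (1.56, 0.0379), as it did in DESeq2 (1.36, DESeq2 adjusted p 0.0344). Without RCI replicate 3 both passed, at 1.34 (edgeR adjusted p 0.0114) and 1.35 (0.00674). Without Sham replicate 2 the calls in WBIR and WBIR+MSC-EVs were lost, at 1.62 (0.0678) and 1.76 (0.0506). That Cd163 passed in some groups and not in others is no test of a difference between them, which is given with the burn below. By mean, the order was Sham, RCI, RCI+MSC-EVs, WBIR and WBIR+MSC-EVs, with overlap between each pair of neighbors.

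Cd36, the class B receptor gene, moved least. Sham samples had 285, 353 and 201 scaled counts, WBIR 417, 471 and 338, WBIR+MSC-EVs 480, 332 and 359, RCI 366, 575 and 267, and RCI+MSC-EVs 317, 359 and 300. The ranges overlapped with Sham in each group. The log2FC over Sham was 0.55 ± 0.29 in WBIR (edgeR adjusted p 0.101), 0.48 ± 0.29 in WBIR+MSC-EVs (0.151) and, with the burn, 0.53 ± 0.29 in RCI (0.113) and 0.22 ± 0.29 in RCI+MSC-EVs (0.505), and none passed. The 95% interval in WBIR ran from -0.06 to 1.17, which leaves room for a rise of up to 2.25-fold. The Cd36 result depended on the scaling. With TMM scaling Cd36 was 1.21 higher in WBIR (edgeR adjusted p 0.000376), 1.03 in WBIR+MSC-EVs (0.00148) and, with the burn, 0.98 in RCI (0.00181) and 0.57 in RCI+MSC-EVs (0.0414), all past the threshold. It also passed at 0.75 in WBIR (0.045) and 0.72 in RCI (0.0499) without Sham replicate 2, and at 0.76 in RCI (0.0229) without RCI replicate 3. Platelets carry Cd36 as well, and of 4 platelet and erythroid markers Ppbp (2.20 ± 0.49) and Gp1bb (2.75 ± 0.47) were higher in WBIR, Tfrc was lower (-2.72 ± 0.30) and Itga2b did not pass (1.10 ± 0.51). The 4 markers summed to 811 to 1906 scaled counts in Sham and 1716 to 5090 over the irradiated samples, and their part in the Cd36 counts was not tested. Endothelial cells carry Cd36 too. Of 6 endothelial and stromal markers, 2 were higher in WBIR, Cxcl12 (1.95 ± 0.48) and Ccl19 (2.07 ± 0.59), and 1 was lower, Icam2 (-2.89 ± 0.26). Pecam1 (-0.64 ± 0.34), Cdh5 (0.71 ± 0.43) and Cxcl13 (0.59 ± 0.70) did not pass. The part of these markers was not tested either. The means rose from Sham through RCI+MSC-EVs, WBIR+MSC-EVs and RCI to WBIR, and all neighbors overlapped.

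Cd14 had 161, 53.9 and 271 scaled counts in Sham, the widest Sham spread of the 7 genes at 5.03-fold. It had 275, 348 and 409 in WBIR, 268, 661 and 528 in WBIR+MSC-EVs, 515, 735 and 1055 in RCI, and 810, 698 and 666 in RCI+MSC-EVs. The burned samples were all at least 515, above every WBIR sample. The log2FC over Sham was 1.56 ± 0.46 in WBIR+MSC-EVs (edgeR adjusted p 0.00744) and, with the burn, 2.21 ± 0.46 in RCI (0.00073) and 2.13 ± 0.46 in RCI+MSC-EVs (0.00107). In WBIR it was 1.06 ± 0.45 with an edgeR adjusted p of 0.0506, just outside the threshold, although the WBIR and Sham ranges did not overlap, as was so for 71.1% of tested genes. That value passed in 12 of 26 alternative settings and missed in the others. It passed with TMM scaling (1.55, 0.0228), in DESeq2 (1.07, DESeq2 adjusted p 0.0295), in limma (1.27, limma adjusted p 0.026) and without Sham replicate 3 (1.63, 0.00823), WBIR+MSC-EVs replicate 1 (1.06, 0.0394), RCI replicate 1 (1.06, 0.0493) or RCI replicate 3 (1.05, 0.0416). Leaving out single samples gave 0.67 to 1.63, with edgeR adjusted p up to 0.141. An unequal-variance test per gene did not keep the 3 Cd14 calls, at adjusted p over all tested genes of 0.104 in RCI, 0.118 in RCI+MSC-EVs and 0.161 in WBIR+MSC-EVs. Group means rose from Sham through WBIR, WBIR+MSC-EVs and RCI+MSC-EVs to RCI. Among neighbors in this order, the ranges of WBIR with WBIR+MSC-EVs and of RCI+MSC-EVs with RCI overlapped, and the others did not.

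Emr1, the F4/80 gene, had 261, 250 and 303 scaled counts in Sham. WBIR samples had 2076, 4088 and 4199, WBIR+MSC-EVs samples 2107, 5204 and 4547, RCI samples 4454, 4241 and 4257, and RCI+MSC-EVs samples 4615, 4451 and 4438. The burned samples were close together, with a coefficient of variation of 2.75% in RCI and 2.19% in RCI+MSC-EVs, while WBIR replicate 1 and WBIR+MSC-EVs replicate 1 were the lowest irradiated samples. These 2 samples also had the lowest summed macrophage markers of their groups (21079 and 21875 scaled counts) and the highest summed NK cell markers of any irradiated sample (3357 and 3526), and the part of these in the Emr1 counts was not tested. Relative to Sham, the log2FC of Emr1 was 3.67 ± 0.36 in WBIR (edgeR adjusted p 1.18e-06), 3.86 ± 0.37 in WBIR+MSC-EVs (9.96e-07) and, with the burn, 3.99 ± 0.37 in RCI (6.7e-07) and 4.05 ± 0.37 in RCI+MSC-EVs (8.26e-07). The rise in WBIR was 12.7-fold with a 95% interval of 7.41 to 21.8. Unlike Marco and Cd163, Emr1 in RCI replicate 3 differed from the mean of the other RCI samples by -0.03 on the log2 scale. Beyond Sham, the means of WBIR and WBIR+MSC-EVs came next and those of the burned groups, RCI then RCI+MSC-EVs, last, with overlap between neighbors.

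Pparg had 33.1, 36.7 and 34.6 scaled counts in Sham, from 40, 15 and 45 raw counts. It had 315, 446 and 409 in WBIR, 324, 344 and 376 in WBIR+MSC-EVs, 378, 391 and 189 in RCI, and 302, 336 and 455 in RCI+MSC-EVs. The lowest irradiated sample, RCI replicate 3, was still above the highest Sham sample. Relative to Sham, Pparg had a log2FC of 3.49 ± 0.30 in WBIR (edgeR adjusted p 4.74e-07), 3.33 ± 0.30 in WBIR+MSC-EVs (7.28e-07) and, with the burn, 3.20 ± 0.30 in RCI (7.99e-07) and 3.39 ± 0.30 in RCI+MSC-EVs (7.05e-07). Folds were 11.2 in WBIR (95% interval 7.16 to 17.7) and 9.17 in RCI (5.86 to 14.3). As for Msr1, the Sham counts were low and no background was subtracted. The mean was lowest in Sham, and the RCI, WBIR+MSC-EVs, RCI+MSC-EVs and WBIR groups followed with overlapping ranges.

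To relate these rises to other genes that macrophages express, the samples were scaled to 9 other macrophage markers, Csf1r, Cybb, Fcgr1, Tyrobp, C1qa, C1qb, Ly86, Itgam and Cx3cr1, and tested again. With reference scaling, 6 of the 9 rose in WBIR and 6 in RCI, with medians of 1.68 and 1.58, beside medians of -0.74 and -0.53 for all tested genes. Their sum ranged from 6029 to 9029 scaled counts in Sham and from 16531 to 43067 over the irradiated samples. The 9 did not move alike. In WBIR, Itgam (-0.50 ± 0.70), Cybb (0.30 ± 0.36) and Ly86 (0.53 ± 0.45) were not called, and Fcgr1 rose most (3.90 ± 0.51). Values on this scale therefore depend on which of the 9 markers it holds. Relative to these markers, edgeR called 4 of the 7 genes higher in each of the 4 comparisons with Sham, Marco, Msr1, Emr1 and Pparg. Of all tested genes, 4.69%, 4.23%, 5.63% and 4.93% were called higher for WBIR, WBIR with MSC-EVs, RCI and RCI with MSC-EVs, and 79.6%, 80.3%, 79.6% and 80% in either direction.

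Emr1 was higher relative to the markers by 1.95 ± 0.30 in WBIR (edgeR adjusted p 2.12e-05) and 2.25 ± 0.30 in RCI (6.02e-06). Msr1 was higher by 1.60 ± 0.42 in WBIR (0.00256) and 2.97 ± 0.44 in RCI (1.53e-05), and Pparg by 1.81 ± 0.34 (0.000159) and 1.32 ± 0.34 (0.00203). The rises of these 3 genes in the groups given MSC-EVs were between 1.40 and 2.64. Marco was higher by 1.83 ± 0.77 in WBIR (0.04), 2.03 ± 0.77 in WBIR+MSC-EVs (0.0247) and, with the burn, 3.44 ± 0.82 in RCI (0.00125) and 1.73 ± 0.77 in RCI+MSC-EVs (0.0494). Marco's call was the least secure. In RCI it was 1.09 (edgeR adjusted p 0.0199) without RCI replicate 3. In WBIR it was lost without any 1 of the Sham or WBIR samples, at 1.73 to 1.89 with adjusted p up to 0.0999. In WBIR+MSC-EVs it was lost without any 1 of the Sham samples or without WBIR+MSC-EVs replicate 3 (1.80, 0.0678). In RCI+MSC-EVs it was lost without any 1 of the Sham, WBIR or WBIR+MSC-EVs samples, and was 1.06 (0.235) without RCI+MSC-EVs replicate 3. With samples scaled to Csf1r alone, Marco was at 1.61 in WBIR (0.0872), 1.73 in WBIR+MSC-EVs (0.0671) and 1.81 in RCI+MSC-EVs (0.06), none of which passed.

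Cd36 had the opposite sign on this scale. Its log2FC over Sham was -1.15 ± 0.40 in WBIR (edgeR adjusted p 0.0147), -1.30 ± 0.40 in WBIR+MSC-EVs (0.00763) and, with the burn, -1.38 ± 0.40 in RCI (0.00506) and -1.87 ± 0.41 in RCI+MSC-EVs (0.000544). Most tested genes were called lower on this scale too, 74.9%, 76.1%, 73.9% and 75.1% of them, so the Cd36 fall was shared with the bulk of the panel. The Cd36 call in WBIR was lost without Sham replicate 2 (-0.85, 0.0685) or WBIR replicate 3 (-0.96, 0.0693). Cd163 differed from Sham by 0.17 ± 0.46 in WBIR (0.741) and 0.18 ± 0.46 in WBIR+MSC-EVs (0.728), was lower in RCI, at -1.20 ± 0.46 (0.027), and was at -0.70 ± 0.46 in RCI+MSC-EVs (0.172). The Cd163 call in RCI was lost without Sham replicate 1 (-0.91, 0.114) and was -0.75 (0.047) without RCI replicate 3, and in RCI+MSC-EVs the value passed without RCI replicate 3 (-0.70, 0.0364). The RCI calls of Cd163 (-0.92, 0.0795) and Cd36 (-1.10, 0.0868) were lost with scaling to Csf1r alone, and that of Cd163 also without C1qa and C1qb (-0.95, 0.0947). Cd14 passed in none of these comparisons, with values from -0.53 ± 0.47 in WBIR to 0.70 ± 0.47 in RCI, the latter -0.10 without RCI replicate 3 (edgeR adjusted p 0.829).

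**Figure D2:**
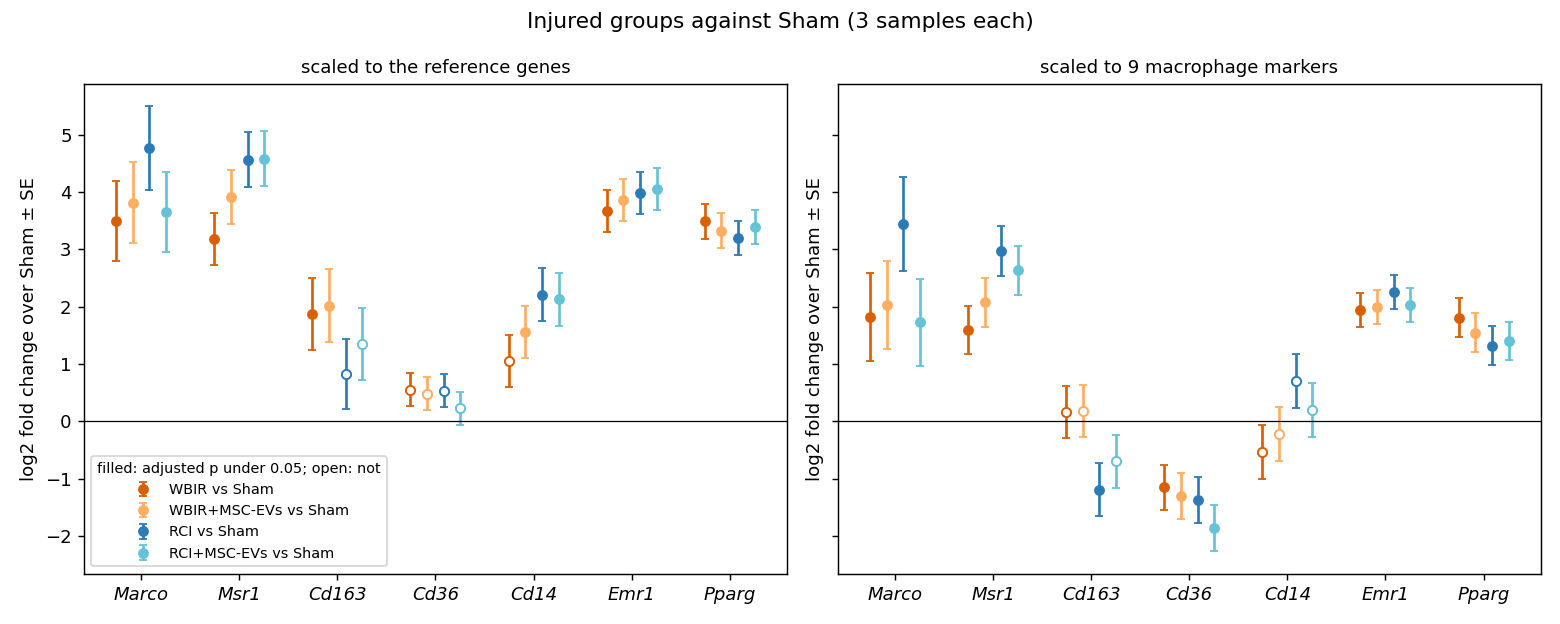
Log2 fold change over Sham (points, ± SE, 3 samples a group) of the 7 genes in the 4 irradiated groups, with samples scaled to the reference genes (left) or to 9 macrophage markers (right); open points did not pass an edgeR adjusted p of 0.05. Marco, Msr1, Emr1 and Pparg lie above 0 on both scales, whereas Cd36 lies at 0.22 to 0.55 on the left and at -1.87 to -1.15 on the right.

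The genes around these receptors were described from lists. Of 11 other scavenger and uptake receptor genes tested, 6 were higher and 2 lower in WBIR, with a median log2FC of 2.05, and the counts were the same in RCI, with a median of 2.03. Fcgr1, the high-affinity IgG receptor gene, rose by 3.90 ± 0.51 in WBIR and 4.25 ± 0.52 in RCI (edgeR adjusted p 1.52e-05 and 8.03e-06), C1qb of the complement C1q complex by 2.68 ± 0.49 and 2.95 ± 0.50 (0.000263 and 0.00013), and Fcgr3 by 2.53 ± 0.44 and 2.45 ± 0.44 (0.000179 and 0.00022). The 2 that fell were Fcgr2b, the inhibitory IgG receptor gene that B cells also express (-3.07 ± 0.35 and -1.79 ± 0.33, edgeR adjusted p 4.63e-06 and 0.000299), and the T cell receptor-associated Cd6 (-2.94 ± 0.38 and -2.99 ± 0.38, 1.52e-05 and 1.3e-05). Fcgr1, Itgam, C1qa and C1qb are in the macrophage marker list too, as are Ly86, Csf1r and Cx3cr1 of the lists that follow.

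Cd14 acts with TLR4 and MD-2, the product of Ly96. Of 18 genes tested from this pathway, 5 were higher and 5 lower in WBIR (median -0.49), and 7 were higher and 4 lower in RCI (median 0.80). Tlr4 rose by 2.10 ± 0.42 in both (edgeR adjusted p 0.000546 and 0.000548) and Ly96 by 1.97 ± 0.29 and 2.29 ± 0.29 (3.97e-05 and 1.08e-05), as did Tlr8 by 2.24 ± 0.52 and 2.27 ± 0.53 (0.00171 and 0.00147). Tlr1 (-2.14 ± 0.38 and -1.32 ± 0.37), Irak2 (-1.99 ± 0.25 and -2.05 ± 0.25) and Traf6 (-1.36 ± 0.23 and -1.49 ± 0.23) fell, with edgeR adjusted p of at most 0.00564. With TMM scaling the list had 6 higher and 3 lower in WBIR and 9 higher and 3 lower in RCI.

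Around Pparg, 10 partners, targets and alternative activation genes were tested. In WBIR 3 were higher and 3 lower (median 0.22), and in RCI 5 were higher and 3 lower (median 0.77), whereas with TMM scaling 6 were higher and 1 lower in both. Ccl24, an eosinophil-attracting chemokine gene of alternatively activated macrophages, rose by 7.10 ± 0.99 in both (edgeR adjusted p 2.69e-05 and 2.68e-05), Cdkn1a, the p21 cell cycle inhibitor gene, by 4.70 ± 0.41 and 4.71 ± 0.41 (4.77e-07 and 5.32e-07), and Cebpb by 1.74 ± 0.21 and 1.79 ± 0.21 (6.14e-06 and 5.49e-06). Cdkn1a is also a p53 target. The genes that fell were the interleukin-4 receptor gene Il4ra (-1.12 ± 0.30 and -0.90 ± 0.30) and the transcription factor genes Stat6 (-0.59 ± 0.16 and -0.80 ± 0.17) and Irf4 (-1.87 ± 0.34 and -1.49 ± 0.33), with edgeR adjusted p of at most 0.0154, and lymphocytes express them too. The 12 T cell markers and 9 B cell markers tested were all called lower in WBIR and RCI, with summed levels of 11363 to 23789 and 16748 to 18748 scaled counts in Sham and 2478 to 5377 and 971 to 1869 over the irradiated samples. Their part in the falls of Cd6, Fcgr2b, Il4ra, Stat6 and Irf4 was not tested.

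Of 10 macrophage lineage factors and receptors, 3 were higher and 2 lower in WBIR (median 0.19), and 6 were higher and 3 lower in RCI (median 1.04). With TMM scaling the counts were 4 higher and 1 lower in WBIR and 6 higher and 1 lower in RCI. Without RCI replicate 3 and WBIR+MSC-EVs replicate 1 there were 5 higher and 1 lower in RCI. Maf, a transcription factor gene of tissue macrophages, rose by 2.23 ± 0.26 and 2.03 ± 0.26 (edgeR adjusted p 4.62e-06 and 1.06e-05), and Csf1r, the CSF1 receptor gene, by 1.80 ± 0.43 and 1.58 ± 0.43 (0.00201 and 0.00442). Ccl2, a monocyte-attracting chemokine gene, was at 1.81 ± 1.00 in WBIR (0.122) and rose by 4.97 ± 0.95 in RCI (0.000375), where RCI replicate 3 had 322 scaled counts and the others 27.8 and 45.5. Bcl6 was lower, at -1.88 ± 0.44 and -2.02 ± 0.44 (0.00157 and 0.000925) as was Runx1, at -0.53 ± 0.21 and -0.48 ± 0.21 (0.0321 and 0.0495). Ccr2, the monocyte receptor for CCL2, was at -0.60 ± 0.46 in WBIR (0.253) and lower in RCI, at -1.35 ± 0.46 (0.0181).

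**Figure D3:**
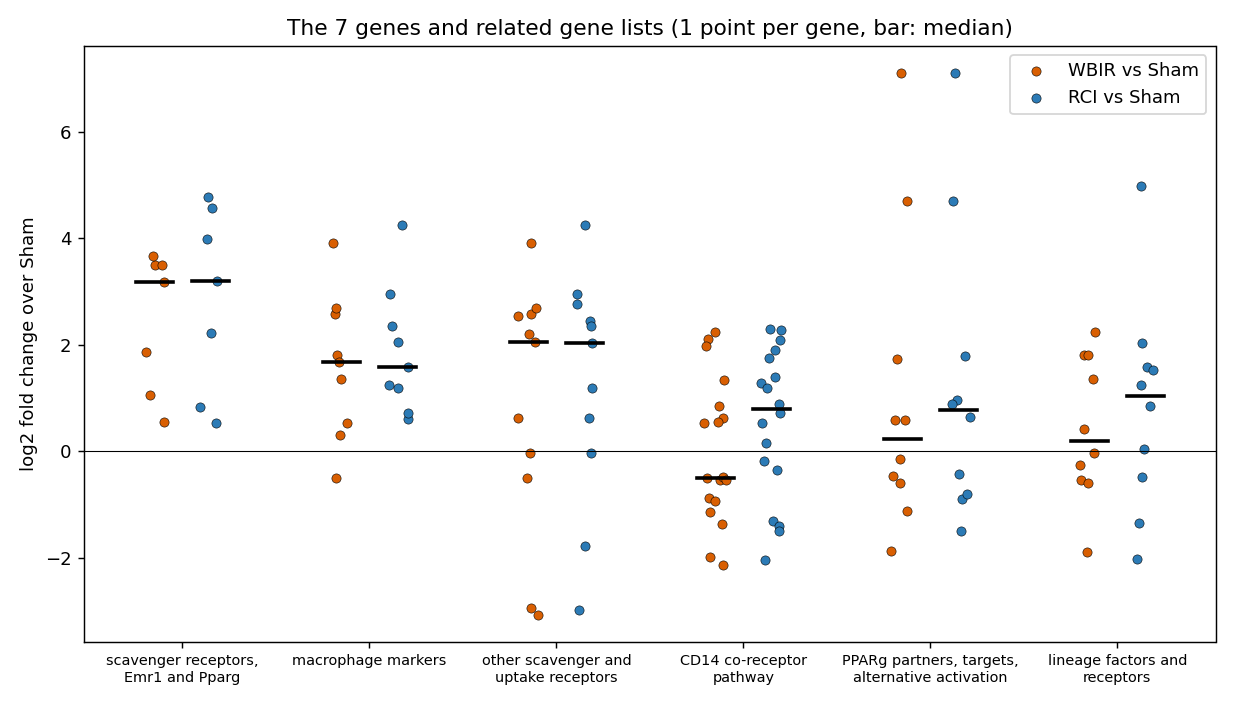
Log2 fold change over Sham (1 point per gene, bar at the median) in WBIR and RCI for the 7 genes, the 9 macrophage markers and 4 lists of related genes. The 7 genes have medians of 3.18 and 3.20, and the CD14 pathway list spreads on both sides of 0 with medians of -0.49 and 0.80.

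RCI was compared with WBIR to ask what the burn added. By the methods, burned mice also received anesthesia, shaving, morphine and resuscitation fluid, which are not described for mice that were only irradiated. The burn cannot be told apart from these treatments, here or in the average below. edgeR called 0 of the 7 genes, with 3 of 426 tested genes (0.704%) called, and 2 of the 7 had an unadjusted p under 0.05 (71 of 426 did). Msr1 was at 1.39 ± 0.41 (95% interval 0.51 to 2.27, edgeR adjusted p 0.0951) and Cd14 by 1.16 ± 0.45 (0.20 to 2.11, 0.213). In both genes, and in Emr1 (0.32 ± 0.33, 0.677), the 3 RCI samples lay above the 3 WBIR samples, which was so in one direction or the other for 27% of tested genes. DESeq2 called Msr1 alone of the 7 (1.39, DESeq2 adjusted p 0.0245). The share of tested genes that DESeq2 called is not given, so this count cannot be set against the panel. Marco was at 1.27 ± 0.64 (0.342), and at -0.32 without RCI replicate 3 (edgeR adjusted p 0.668). Cd163 was at -1.04 ± 0.62 (0.393), Cd36 at -0.02 ± 0.28 (0.987; 0.20 without that sample) and Pparg at -0.29 ± 0.26 (0.619).

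Averaging the burn over untreated and MSC-EV samples, 6 against 6, edgeR called 0 of the 7 genes, with 3.05% of tested genes called and each of those higher with the burn. The ranges were apart for 0 of the 7 and for 9.62% of tested genes. Msr1 was at 1.03 ± 0.29 (95% interval 0.42 to 1.65, edgeR adjusted p 0.0542). This value passed in 8 of 26 alternative settings and missed in the others. It passed without Sham replicate 2 (1.03, 0.0273), Sham replicate 3 (1.03, 0.0443), WBIR+MSC-EVs replicate 2 (1.35, 0.0128) or RCI replicate 1 (1.12, 0.0495), and also in DESeq2 (1.03, DESeq2 adjusted p 0.00932). Sham samples enter this comparison only through the shared estimate of the spread. Cd14 was at 0.86 ± 0.31 (95% interval 0.19 to 1.53, edgeR adjusted p 0.102). It passed in 3 of 26 alternative settings, among them without Sham replicate 2 (0.86, 0.0339) and in DESeq2 (DESeq2 adjusted p 0.0461). Msr1 and Cd14 were the 2 genes of the 7 with an unadjusted p under 0.05 here (110 of 426 tested genes had one), as in RCI against WBIR, with which this comparison shares samples. Cd163 was at -0.86 ± 0.43 (0.223), Marco at 0.56 ± 0.45 (0.438), Emr1 at 0.25 ± 0.23 (0.488), Pparg at -0.12 ± 0.19 (0.724) and Cd36 at -0.14 ± 0.20 (0.695). Without RCI replicate 3 Marco turned to -0.24 (edgeR adjusted p 0.549) and Pparg to 0.02 (0.931). Relative to the macrophage markers, Msr1 was at 0.96 ± 0.28 (edgeR adjusted p 0.191) and Cd163 at -1.12 ± 0.33 (0.191). On that scale 0 of the 7 were called by edgeR, with 0.235% of tested genes called by edgeR. DESeq2 called Msr1 and Cd163 (adjusted p 0.0354 each), and its share of tested genes is not given.

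The effect of MSC-EVs was tested in each injury. In WBIR+MSC-EVs against WBIR edgeR called 0 of the 7 genes and 0 of 426 genes (0%), and 0 of the 7 had an unadjusted p under 0.05 (11 of 426 did). The ranges of 0 of the 7 were apart, against 8.92% of tested genes. Msr1 was at 0.73 ± 0.40 (95% interval -0.14 to 1.60), Cd14 at 0.51 ± 0.44 (-0.44 to 1.46) and Marco at 0.31 ± 0.63 (-1.04 to 1.67). Emr1 (0.20 ± 0.33), Cd163 (0.15 ± 0.61), Cd36 (-0.07 ± 0.29) and Pparg (-0.16 ± 0.27) were nearer to 0 than their unpaired errors. The interval of Pparg, -0.73 to 0.41, on the log2 scale, was the narrowest of the 7 and spans folds of 0.602 to 1.32.

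In RCI+MSC-EVs against RCI edgeR also called 0 of the 7 and 0 of 426 genes (0%), and again 0 of the 7 had an unadjusted p under 0.05 (14 of 426 did). Ranges were apart for 0 of the 7 and for 10.8% of tested genes. Marco was at -1.11 ± 0.64 (95% interval -2.48 to 0.25, edgeR adjusted p 0.989), and at 0.48 without RCI replicate 3 (0.998), so the sign rested on that sample. Cd163 was at 0.52 ± 0.61 (-0.79 to 1.84), and at 0.01 without it. With same-numbered samples assumed to be pairs, as a block within each injury, Cd163 was at 0.99 ± 0.45 (unadjusted p 0.0515 and adjusted p 0.908 in edgeR). This fit was chosen after seeing the data. The 3 RCI pairs differed by 0.07, 0.48 and 2.56 on the log2 scale. The largest came from RCI replicate 3, with 93.2 scaled counts against 549 in its pair. The values that follow are again unpaired. Cd36 was at -0.31 ± 0.29 (-0.92 to 0.31) and Pparg at 0.19 ± 0.26 (-0.37 to 0.76). Cd14 (-0.08 ± 0.44), Emr1 (0.06 ± 0.33) and Msr1 (0.01 ± 0.40) were nearer to 0 than their errors. Without RCI replicate 3 Cd14 was at 0.22 and Pparg at -0.08. In same-numbered samples, Cd163 and Emr1 were higher with MSC-EVs in all 3 WBIR and all 3 RCI pairs, by 0.07 to 2.56 and 0.02 to 0.35 on the log2 scale, as were 8.92% of tested genes in all 6 pairs. The Emr1 differences were small, and with TMM scaling Emr1 was at -0.09 in RCI+MSC-EVs against RCI. Averaged over both injuries, 0 of the 7 and 0 of 426 genes (0%) were called by edgeR, with Marco at -0.40 ± 0.45 and Msr1 at 0.37 ± 0.28. Without RCI replicate 3 the averaged Marco value was 0.40 (edgeR adjusted p 0.998), so its sign rested on that sample, and that of Pparg went from 0.02 to -0.12. The MSC-EV effects of the injuries were also compared directly, and edgeR called 0 of the 7 and 0 of 426 genes (0%). That difference was -1.43 ± 0.89 for Marco and 0.38 ± 0.86 for Cd163, and turned to 0.16 and -0.14 without RCI replicate 3. By DESeq2 and by limma, too, none of these 4 tests gave a call among the 7 genes (0 each), and their shares of tested genes are not given. With 3 samples a group, a p that misses the threshold does not show that vesicles left these genes as they were.

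**Figure D4:**
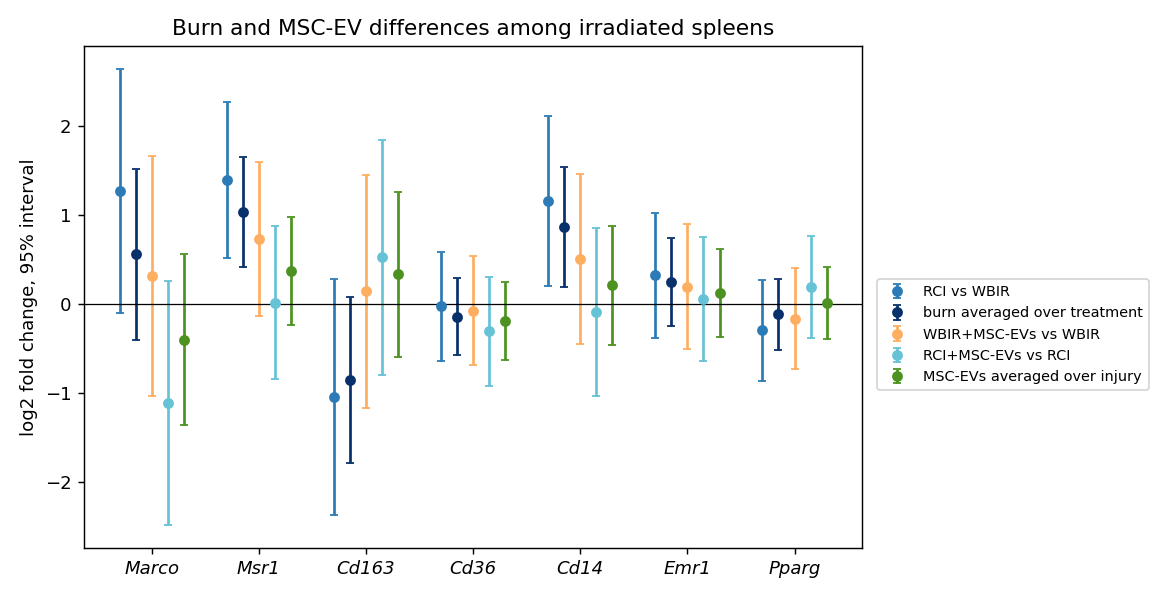
Log2 fold change (points) with 95% interval (bars) of the 7 genes for the burn and for MSC-EVs among irradiated spleens, in 3 against 3 samples or averaged over 6 against 6. The intervals, not adjusted for the number of genes, lie above 0 for Msr1 and Cd14 with the burn (Msr1 0.42 to 1.65 averaged). Unadjusted p was under 0.05 for 71 of 426 tested genes in RCI against WBIR and for 110 averaged. Every MSC-EV interval includes 0. After adjustment edgeR called 0 of the 7 genes for the burn (0.704% of tested genes in RCI against WBIR, 3.05% averaged) and 0 for MSC-EVs (0%).

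How the 7 genes varied together was described with Pearson's r of log2 values over the 12 irradiated samples, which share the assay and the scaling. Msr1 and Cd14 moved together, at 0.913, and at 0.920 without RCI replicate 3. Cd14 and Emr1 were at 0.754, and at 0.819 without it. Marco and Cd163 were at -0.703 with that sample and 0.248 without it, so their opposition rested on it, as did Cd163 with Pparg (0.744 and 0.044). Over all 15 samples the highest pairs were Msr1 with Emr1 and Emr1 with Pparg, at 0.956 each, where the Sham samples lie far below the others in all 3 genes.

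Outside the 7, the gene most like each was found by the same measure over the 12 irradiated samples. For Marco it was Irak3 (0.896), followed by Nfkb2 and Tnfaip3, but without RCI replicate 3 these fell to 0.566, 0.475 and 0.524 and C1qbp (0.793) was nearest. Msr1 was nearest to Lilrb4 (0.912) and Cd14 to Lilrb3 (0.927), with Xbp1 among the 3 nearest of both. Cd163 was nearest to Pml (0.952), and without that sample to Ifnar2 (0.906), with Pml at 0.810. Emr1 was nearest to Cd44 (0.971, and 0.972 without the sample), Pparg to Tlr4 (0.805, and 0.400 without) and Cd36 to Irgm1 (0.757, and 0.684 without). The values of Msr1 with Lilrb4 and of Cd14 with Lilrb3 were 0.902 and 0.911 without it. Over all 15 samples the nearest genes were Il1a for Marco (0.918), Xbp1 for Msr1 (0.972) and Cd14 (0.936), Vcam1 for Cd163 (0.908), Fcer1g for Emr1 (0.988), Maf for Pparg (0.984) and Itgax for Cd36 (0.755).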

How the data were processed

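Spleen RNA of 15 samples, 3 in each of 5 groups, was counted with the nCounter Mouse Immunology Panel. The authors deposited raw barcode counts for 561 genes, of which 14 are reference genes, and normalized them with nSolver for their own analysis. Control probes were not used here, so no background was subtracted, and cartridge effects were not analysed. Total counts ranged from 90127 to 598872 (median 360995).

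Counts were scaled to the geometric mean of the reference genes. The 426 genes with a mean count of at least 20 were fitted over all 15 samples with edgeR 4.0.16 in R 4.3.3 (quasi-likelihood test, Benjamini-Hochberg adjustment over 426 genes, 10 comparisons). The dispersion shared by all genes was 0.11 (coefficient of variation 33.1%). A second fit scaled samples to 9 macrophage markers. SE was derived from the test's F value. Alternatives were TMM and median-of-ratios scaling, the 7 least variable reference genes, a mean count of at least 50, DESeq2 1.42.0, limma 3.58.1 on log2 values with a pseudocount of 10, an unequal-variance test, a replicate block, only the groups compared, and leaving out each sample.

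Groups came from the labels. Same-numbered samples deviated together within each injury (correlations 0.243 to 0.677 in WBIR and 0.261 to 0.522 in RCI) but not between WBIR and Sham (-0.405 to 0.083) or RCI and Sham (-0.133 to 0.247), so numbers were taken as pairs within an injury only. Differently numbered samples ranged from -0.596 to 0.510 in WBIR and from -0.485 to 0.3465 in RCI. Some of them thus matched as well as same-numbered samples, and the pairing by number is an assumption. The 7 genes and the gene lists were chosen with earlier results of these data known. Genes were named from each list as the 3 largest rises and the 3 largest falls by the mean of the WBIR and RCI changes over Sham, among genes called in at least 1 of the 2. Differences by pair and correlations without RCI replicate 3 were added after seeing the data. The code was tested on simulated data.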

Additional observations from a re-analysis of the deposited data

How the results depend on the processing

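Over the alternatives other than leaving out samples, 886 values kept their direction and side of the threshold, 28 passed it newly, 10 no longer passed and 14 turned sign; the cause was not tested. The number of the 7 genes called in RCI against Sham was 3 with the unequal-variance test, 6 with TMM and 5 to 7 leaving out samples, and in WBIR against Sham 7 with TMM or median-of-ratios. It was 1 in RCI against WBIR with DESeq2. For the burn averaged it was 2 with DESeq2, 1 with limma, 2 with only the groups compared and 0 to 2 leaving out samples, and 2 with DESeq2 relative to macrophage markers. With the replicate block over all samples it was 1 for the burn averaged and 7 for WBIR against Sham, where Cd14 (1.10, edgeR adjusted p 0.0388) and Cd36 (0.57, 0.0495) passed, and the block within each injury, chosen after seeing the data, changed no MSC-EV call (0 of 7). Relative to the markers, WBIR against Sham had 3 to 5 leaving out samples. Shares of all tested genes called under these settings are not given here. These counts therefore do not show whether the 7 genes changed apart from the panel.

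None of the values that turned sign was called. For RCI+MSC-EVs against RCI they were Msr1 (-0.17 with TMM, -0.20 with median-of-ratios), Emr1 (-0.09 and -0.13) and Cd14 (0.0025 with 7 reference genes, 0.0036 with the replicate block). For MSC-EVs averaged they were Emr1 (-5.3e-05 with TMM, -0.01 with median-of-ratios) and Pparg (-0.08 and -0.09). Relative to the markers, Csf1r alone gave Msr1 -0.15 for MSC-EVs averaged, Cd163 -0.02 in WBIR+MSC-EVs against Sham and Pparg 0.07 for the burn averaged, and without C1qa and C1qb Cd14 was 0.03 in WBIR+MSC-EVs against Sham.

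Leaving out samples, including both RCI replicate 3 and WBIR+MSC-EVs replicate 1 (chosen after seeing the data), gave these ranges where the sign turned. RCI+MSC-EVs against RCI: Marco -1.58 to 0.48, Msr1 -0.16 to 0.14, Cd36 -0.53 to 0.04, Cd14 -0.31 to 0.22, Pparg -0.08 to 0.37. WBIR+MSC-EVs against WBIR: Cd163 -0.12 to 0.41, Cd36 -0.24 to 0.04, Emr1 -0.07 to 0.50. RCI against WBIR: Marco -0.32 to 1.72, Cd36 -0.37 to 0.20. Burn averaged: Marco -0.33 to 0.78, Cd36 -0.31 to 0.06, Pparg -0.21 to 0.02. MSC-EVs averaged: Marco -0.63 to 0.49, Emr1 -0.0033 to 0.28, Pparg -0.12 to 0.10. Difference between injuries: Marco -1.90 to 0.16, Cd163 -0.40 to 0.93, Cd36 -0.46 to 0.11, Emr1 -0.45 to 0.13. Relative to the markers, burn averaged: Marco -0.53 to 0.91, Emr1 -0.10 to 0.25. MSC-EVs averaged: Marco -1.09 to 0.43, Msr1 -0.10 to 0.41, Cd14 -0.26 to 0.38, Emr1 -0.17 to 0.18, Pparg -0.27 to 0.0014. Against Sham: Cd163 -0.03 to 0.45 in WBIR and -0.02 to 0.47 in WBIR+MSC-EVs, and Cd14 -0.56 to 0.14 in WBIR+MSC-EVs, -0.10 to 1.06 in RCI and -0.15 to 0.56 in RCI+MSC-EVs.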

Other observations

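In RCI replicate 3 other genes lay as far from the rest of its group as Marco and Cd163 did. Ccl24, a chemokine gene of alternatively activated macrophages, had 166 scaled counts against 3210 and 4659 in RCI replicates 1 and 2, the largest deficit of the 426 genes (-4.53 on the log2 scale). Irak3, an inhibitor of Toll-like receptor signaling, had 975 against 131 and 123 (2.93), and Ccl2 322 against 27.8 and 45.5 (3.14). Emr1 (-0.03) and Msr1 (0.29) lay close to the rest of the group.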
